A study of Mus musculus with 12 samples.

Results

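The genes of the integrated stress response and of amino acid supply were followed in cultured mouse macrophages with and without the microRNA miR-210. The set held 34 genes, chosen by name as targets or partners of the transcription factor ATF4, enzymes of serine and proline synthesis, amino acid transporters and tRNA synthetases. They were chosen with earlier results of these data known, so their counts are no independent support. All 34 were found among the 56941 genes of the deposited count tables. RNA came from monocytes of the bone marrow of C57Bl/6J mice, either wild type (WT) or knocked out for miR-210 (miR-210 KO). The knockout line was made from a floxed miR-210 allele and a Gata-1 Cre, and WT and KO mice were bred from heterozygous parents. Monocytes of both genotypes were grown for 7 days with M-CSF from medium conditioned by L929 fibroblasts and became M0 macrophages. M2 macrophages received 20 ng/mL of IL-4 for a further 72 hours. By the paper's account, untreated cells differed from the treated ones only in lacking IL-4. The paper does not name the day on which M0 cells were lysed for RNA. There were 4 groups of 3 libraries each: M0 and M2 of the WT, and M0 and M2 of the miR-210 KO. The labels do not say whether the libraries of a group came from separate mice, so p values measure the spread between these libraries, which may be technical.

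The integrated stress response starts when a kinase such as GCN2, PERK, PKR or HRI phosphorylates the initiation factor eIF2. General translation then slows, while the mRNA of ATF4 is translated more. ATF4 pairs with other leucine zipper proteins of the C/EBP and ATF families and switches on genes that import and make amino acids, charge tRNAs and, under lasting stress, promote cell death. Its level is set largely by translation, so the mRNA of Atf4 alone does not report its activity. In macrophages, polarization by IL-4 is known to depend on amino acid metabolism, that of glutamine and arginine in particular.

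The microRNA removed in the knockout is shown first, with its seed (bases 2 to 8) in capitals, as RefSeq gives it. Below it stand stretches of 40 bases of GRCm39 from upstream of the start sites of 6 members, each read on the strand that carries the composite element of C/EBP and ATF proteins (TGATGNAA), which is in capitals. They are shown because ATF4 and its partners are known to bind this kind of element.
mmu-miR-210-3p: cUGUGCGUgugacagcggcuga
Ddit3, chr10:127126345-127126384, minus strand: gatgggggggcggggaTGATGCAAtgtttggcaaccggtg
Chac1, chr2:119181514-119181553, minus strand: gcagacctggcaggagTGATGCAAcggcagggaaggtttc
Vldlr, chr19:27194204-27194243, minus strand: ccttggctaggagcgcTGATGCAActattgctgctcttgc
Pycr1, chr11:120534654-120534693, minus strand: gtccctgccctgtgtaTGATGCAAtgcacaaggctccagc
Gpt2, chr8:86218823-86218862, plus strand: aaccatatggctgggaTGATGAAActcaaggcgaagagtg
Aars1, chr8:111760346-111760385, minus strand: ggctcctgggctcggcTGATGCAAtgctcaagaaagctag
Aars1, chr8:111760467-111760506, minus strand: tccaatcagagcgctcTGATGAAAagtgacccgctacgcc

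These letters were searched on both strands from 250 bases before to 50 bases after the start of the canonical transcript. They occurred in 7 of the 34 members (20.6%), the 6 above and Gars1, and in 833 of 21654 protein-coding genes (3.85%). The match of Chac1 lies 159 to 152 bases before the start site and that of Ddit3 199 to 192 bases before it, both on the strand opposite to the gene. None of the 6 serine and one-carbon enzymes and none of the 7 amino acid transporters held it in this window. The count is a description of these windows, and a lack of a match says only that the letters are not there.

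Each library held between 7930525 and 10167695 counts. Mir210, the gene of the deleted microRNA, was counted 1, 3 and 5 times in WT M0 and 1, 2 and 1 times in WT M2, but 0 times in any of the 6 miR-210 KO libraries. Levels below are CPM, the counts of a gene scaled to the size of its library, with TMM factors over the 12 libraries. The 6 macrophage markers were present in every group with a summed level between 3325 and 4016 CPM. The 4 markers of the IL-4 response summed to between 1542 and 2088 CPM in M0 and between 6439 and 7030 CPM in M2. Lymphocyte, fibroblast and mast cell markers summed to at most 1.89 CPM and neutrophil markers to at most 4.43 CPM, with Ly6g at 0 in all groups. The dendritic cell markers summed to at most 0.952 CPM in M0 and to between 10.2 and 18.0 CPM in M2, with Flt3 at 0 in M2. The labels name a separate batch for each group, which therefore cannot be told apart from the group itself.

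The members moved together between libraries of the same group. Over the 29 members tested in every comparison, library 3 of WT M2 held the highest value of its group for 28 members, and the median deviation from the group mean was 0.20 on the log2 scale. Library 1 of WT M2 was above the group mean for 1 of the 29, with a median deviation of -0.14. In M0, library 2 held the lowest value for 20 members in WT and for 23 in miR-210 KO, with median deviations of -0.14 and -0.16. The miR-210 KO M2 libraries lay closer together, with median deviations between -0.014 and 0.018. Over all 13390 genes tested in every comparison, the median deviation of any library was at most 0.008 in size. The main counts, medians and genotype calls of the members that rest on library 3 of WT M2 are given below with and without it. Counts of members without overlap, and of their signs in both states, were not repeated without it.

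**Figure D1:**
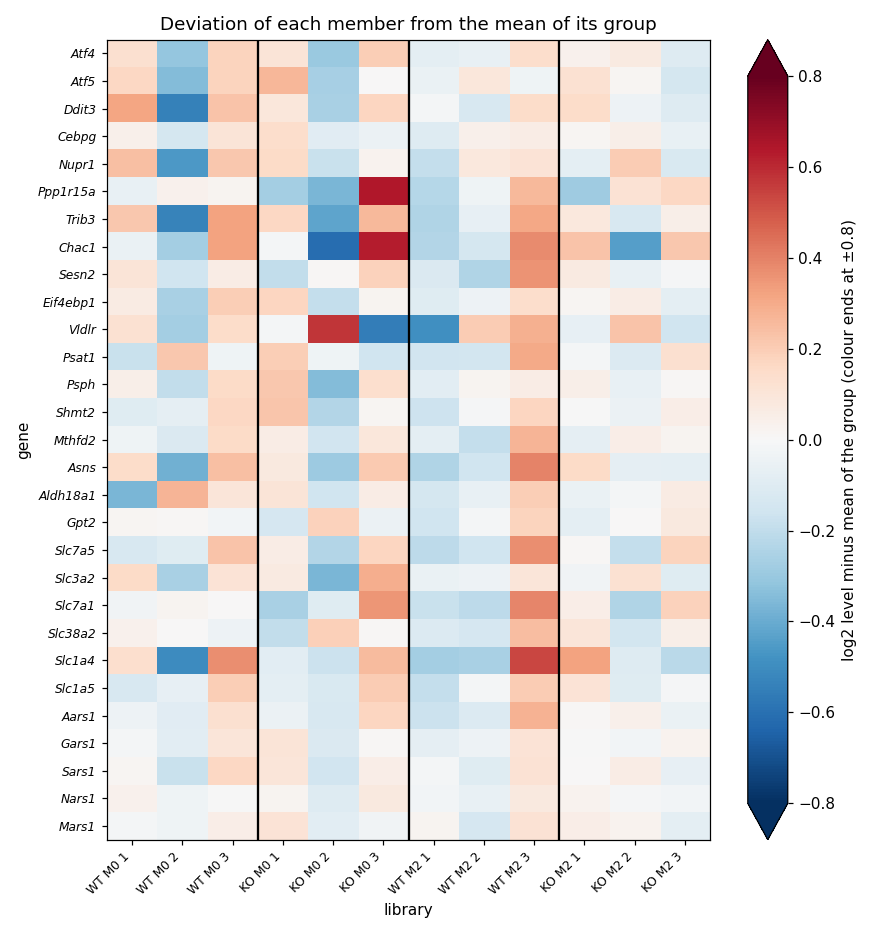
Log2 level of 29 members in each library minus the mean of its group (colour, red above and blue below), with libraries on the x axis, genes on the y axis and black lines between the 4 groups. Library 3 of WT M2 is above its group mean for 28 of the 29 members, and library 2 of either M0 group is below it for most.

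The set spans a wide range of expression. Per kilobase of canonical transcript, Atf4 stood highest in WT M2, at 248 ± 21.6 CPM per kb (SD, n = 3). It was followed by Slc3a2, the shared heavy chain of several amino acid transporters, at 75.8 ± 4.58, Atf5 at 62.9 ± 3.45 and Nars1, the asparaginyl-tRNA synthetase, at 61.7 ± 3.15 CPM per kb. Atf5 and Nars1 differed by less than their spread. Psat1 and Cebpg came next at 44.9 ± 8.59 and 44.2 ± 2.69 CPM per kb, and they did not differ beyond their spread either. At the other end, Cth (cystathionine gamma-lyase), Pycr1 (the last step of proline synthesis) and Aldh1l2 (a mitochondrial folate enzyme) averaged at most 0.602 CPM in any group and passed the filter on low counts in no comparison. Phgdh and Slc6a9 passed it in all but the comparison of genotypes in M0, so 29 members were tested there and 31 elsewhere. Both were rare in M0 and entered the comparisons of M2 with M0 through the M2 libraries. A total of 63.1% of the 50-base stretches of the Phgdh transcript are shared with other genes, pseudogenes among them, and 1326 exonic bases of Aars1 overlap Exosc6 on the same strand, so the counts of these 2 members are uncertain.

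The first comparison asked what IL-4 did to these genes in WT cells. Psat1, the second enzyme of serine synthesis, rose 20.9-fold, and Phgdh, the first enzyme, rose from a base of only a few counts. Chac1, which degrades glutathione, rose 9.04-fold and Slc1a5, the glutamine transporter ASCT2, 7.03-fold. Meanwhile Ddit3 (CHOP), Atf5, Nupr1 and Ppp1r15a, which are known from the stress arm of the response, fell. Not all stress genes did: Chac1, an effector, rose, and Trib3, Sesn2, Eif4ebp1 and Vldlr did not pass the test described next. Genes were tested on counts with edgeR's quasi-likelihood test and were called at a Benjamini-Hochberg adjusted p under 0.05 with a fold change over 1.2 in either direction (written on the log2 scale below). For polarization, an average normalized count over 10 in a protein-coding gene was asked as well. Of the 31 members tested, 14 were called higher and 4 lower in M2, where 18.4% of all genes tested were called higher and 17% lower. The median log2 fold change was 0.20 over the members and -0.0012 over all genes. Over the 29 members tested in every comparison, 12 were called higher and 4 lower, with a median of 0.14. Without library 3 of WT M2, 11 of the 31 were called higher and 6 lower and the median was 0.08, and without library 1 of WT M2 the number called lower was 2. Of all genes, 32.4% and 32.2% were called in either direction in these fits.

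Among the enzymes of serine and one-carbon metabolism, 4 of the 5 tested rose, counting Phgdh, which entered this comparison only through the M2 libraries where it was higher. Psat1 stood at 4.83, 6.51 and 5.38 CPM in the WT M0 libraries and at 104, 105 and 144 CPM in WT M2, a log2 fold change of 4.39 ± 0.16 (SE, adjusted p = 1.091e-10). Phgdh stood at 0.382, 0.310 and 0.913 CPM in WT M0 and at 10.6, 10.8 and 17.1 CPM in WT M2 (log2 fold change 4.51 ± 0.34, adjusted p = 1.427e-07), and the size of this change is uncertain because the WT M0 values rest on 3, 3 and 9 counts. Neither gene had overlapping groups, and 4036 of all 14266 genes tested also rose without overlap. Psph, the last enzyme of serine synthesis, rose by less (0.74 ± 0.12, adjusted p = 0.0001798), as did Shmt2, the mitochondrial serine hydroxymethyltransferase (0.39 ± 0.12, adjusted p = 0.01334). The log2 fold change of Mthfd2, which acts after Shmt2, was 0.20 ± 0.11 and did not pass the test.

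All 3 tested enzymes of the other amino acids rose. Gpt2, a mitochondrial alanine transaminase, went from between 18.5 and 19.0 CPM in WT M0 to between 43.3 and 55.0 CPM in WT M2 (log2 fold change 1.38 ± 0.10, adjusted p = 8.523e-08). Asns, the asparagine synthetase, stood at 24.3, 16.6 and 26.0 CPM in WT M0 and at 40.1, 42.5 and 62.8 CPM in WT M2 (1.12 ± 0.18, adjusted p = 0.0001418). Aldh18a1, the first enzyme of proline synthesis, rose by 0.76 ± 0.15 (adjusted p = 0.0007489). In all 3 every M2 library lay above every M0 library, which also held for 4036 of all 14266 genes tested.

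Of the 7 amino acid transporters, 3 rose, counting Slc6a9, which entered this comparison only through the M2 libraries where it was higher. Slc1a5 stood at 11.4, 11.98 and 14.5 CPM in WT M0 and at 77.7, 87.7 and 102 CPM in WT M2 (log2 fold change 2.81 ± 0.12, adjusted p = 5.142e-10). Slc6a9, the glycine transporter GLYT1, remained rare, at 0.636, 0.517 and 0.913 CPM in WT M0 and 3.18, 3.06 and 2.72 CPM in WT M2 (2.09 ± 0.30, adjusted p = 6.092e-05). Slc7a1, a carrier of arginine and lysine, rose by 1.13 ± 0.14 (adjusted p = 1.904e-05). The other transporters did not pass the test, and their log2 fold changes lay between -0.11 for Slc38a2 and 0.29 for Slc7a5, the leucine transporter LAT1.

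The transcription factors split. Atf4 rose from 372, 275 and 385 CPM in WT M0 to 407, 413 and 475 CPM in WT M2 (log2 fold change 0.33 ± 0.11, adjusted p = 0.02188). Cebpg, a partner of ATF4, rose by 0.42 ± 0.07 (adjusted p = 0.0004133). Atf5 was 190, 134 and 192 CPM in WT M0 and 110, 121 and 111 CPM in WT M2, and fell by 0.58 ± 0.11 on the log2 scale (adjusted p = 0.0008362). Ddit3, which drives cell death under lasting stress, fell by 0.68 ± 0.17 (adjusted p = 0.005823), with its groups overlapping because of library 2 of WT M0 at 32.1 CPM. Nupr1, a small stress-induced nuclear protein, fell by 0.51 ± 0.16 (adjusted p = 0.01905).

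Of the feedback inhibitors, Ppp1r15a (GADD34), which brings a phosphatase to eIF2, fell by 0.44 ± 0.13 (adjusted p = 0.01289). Trib3, a pseudokinase that inhibits ATF4, had a log2 fold change of 0.02 ± 0.19. Among the effectors, Chac1 stood at 1.53, 1.24 and 2.13 CPM in WT M0 and at 12.4, 13.3 and 19.2 CPM in WT M2 (3.18 ± 0.25, adjusted p = 1.821e-07). Sesn2 (an inhibitor of mTORC1), Eif4ebp1 (an inhibitor of cap-dependent translation) and Vldlr (a lipoprotein receptor) did not pass the test. Gars1, the glycyl-tRNA synthetase, was the only one of the 5 synthetases called, with a log2 fold change of 0.26 ± 0.08 (adjusted p = 0.01226), close to the limit on the fold change. The calls of Atf4, Nupr1, Ppp1r15a, Shmt2 and Gars1 did not survive the loss of every single library: without library 3 of WT M2 those of Atf4 (log2 fold change 0.26, adjusted p = 0.1018), Shmt2 (0.30, adjusted p = 0.06916) and Gars1 (0.21, adjusted p = 0.06516) were lost. Without library 1 of WT M2, Nupr1 (adjusted p = 0.08668) and Ppp1r15a (adjusted p = 0.07308) were lost. Nupr1 was also lost without library 1 (adjusted p = 0.06907) or library 3 (adjusted p = 0.09581) of WT M0, and Atf4 without library 2 of WT M0 (log2 fold change 0.19). Gars1 went below the limit on the fold change without library 1 (0.25) or 2 (0.22) of WT M0.

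In miR-210 KO cells the same treatment gave 8 members called higher and 11 called lower, of the 31 tested, against 14.3% and 14% of all genes. The median log2 fold change was -0.03 over the members and -0.0078 over all genes. Over the 29 members tested in every comparison, which leave out Phgdh and Slc6a9, 7 were called higher and 11 lower, with a median of -0.06. Psat1, at 9.58, 8.09 and 7.37 CPM in miR-210 KO M0, reached 76.5, 71.6 and 84.4 CPM in miR-210 KO M2, a 9.30-fold rise (log2 fold change 3.22 ± 0.12, adjusted p = 7.586e-10). Phgdh, at 1.00, 0.381 and 0.797 CPM in miR-210 KO M0, reached 8.58, 5.75 and 7.89 CPM in M2, from a base of 9, 4 and 8 counts (log2 fold change 3.34 ± 0.32, adjusted p = 3.751e-06). Slc1a5 rose 5.21-fold (2.38 ± 0.11, adjusted p = 5.747e-09) and Chac1 3.33-fold (1.73 ± 0.33, adjusted p = 0.001133). Gpt2 (1.24 ± 0.11), Cebpg (0.42 ± 0.08), Asns (0.44 ± 0.13) and Slc7a1 (0.44 ± 0.15) also rose.

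Among the members that fell in miR-210 KO were Atf5 (log2 fold change -1.05 ± 0.12), Ddit3 (-0.91 ± 0.12), Nupr1 (-0.78 ± 0.13) and Ppp1r15a (-0.68 ± 0.25). Trib3 stood at 37.5, 24.8 and 40.1 CPM in miR-210 KO M0 and at 19.0, 16.3 and 18.5 CPM in M2, with no overlap (-0.93 ± 0.16, adjusted p = 0.0006466). The synthetases of alanine and serine, Aars1 (-0.55 ± 0.09) and Sars1 (-0.43 ± 0.09), fell, as did the neutral amino acid transporters Slc1a4 (-0.83 ± 0.25) and Slc7a5 (-0.46 ± 0.16) and the effectors Sesn2 (-0.34 ± 0.11) and Eif4ebp1 (-0.32 ± 0.10). Atf4 (-0.03 ± 0.11), Psph (0.11 ± 0.16), Shmt2 (0.07 ± 0.13), Aldh18a1 (0.18 ± 0.12), Slc6a9 (0.63 ± 0.66) and Gars1 (-0.02 ± 0.09), which were called in WT, did not pass the test in miR-210 KO. Whether the response differed between the genotypes is the interaction tested below. The calls of Ppp1r15a, Sesn2, Eif4ebp1, Asns, Slc7a5, Slc7a1 and Slc1a4 were lost when 1 library or another was left out, and the count of members called lower went down to 6 without library 3 of miR-210 KO M0 and to 7 without any 1 of the miR-210 KO M2 libraries. Between 23.1% and 25.7% of all genes were called in either direction in the fits that gave these counts. The 5 proliferation markers summed to between 81.7 and 202 CPM in M0 and between 204 and 254 CPM in M2, and their part in these differences was not tested, nor was that of the dendritic cell markers.

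**Figure D2:**
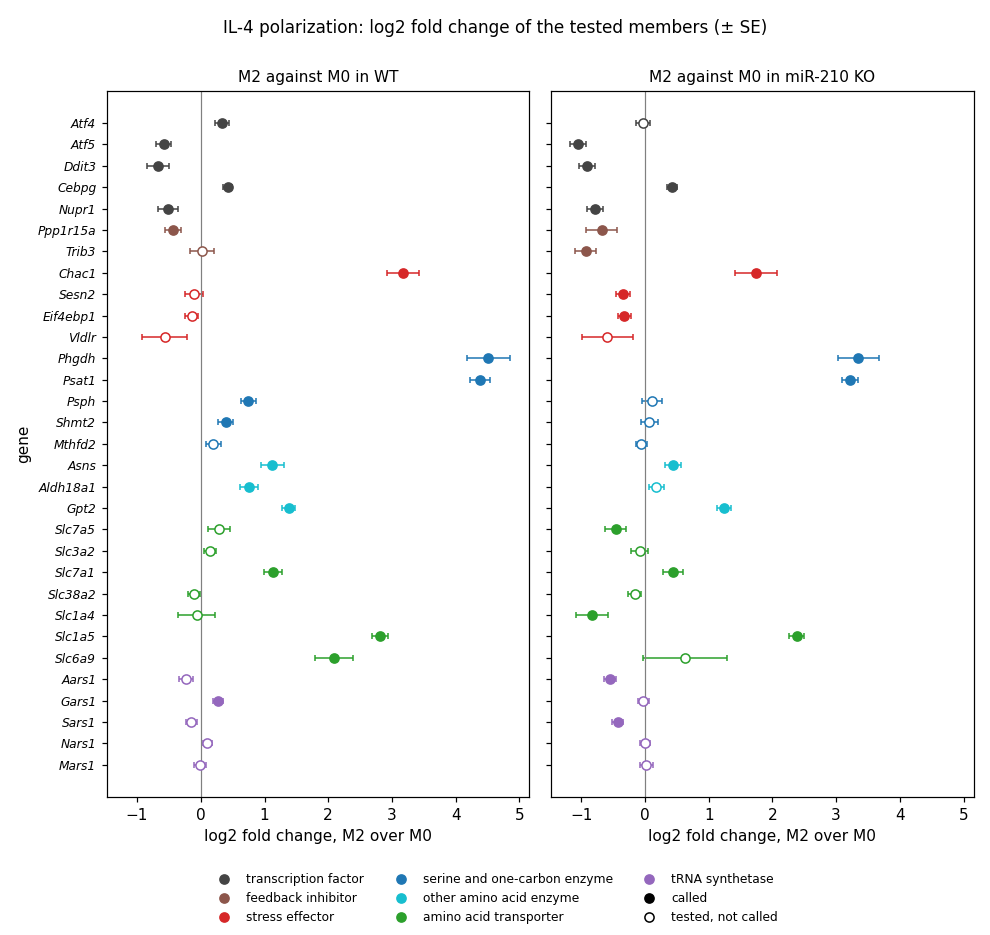
Log2 fold change of M2 over M0 (x axis, with its SE as a bar) of each tested member (y axis) in WT (left) and miR-210 KO (right), coloured by role, with filled points for called genes. Phgdh and Psat1 lie above 4 in WT and between 3.22 and 3.34 in miR-210 KO, and 11 members in miR-210 KO are filled on the left of 0.

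Other genes of the pathway were counted from a list of 58, of which 53 were tested in each comparison. With IL-4, 16 of the 53 rose and 9 fell in WT, where 18.4% and 17% of all genes did. In miR-210 KO 11 rose and 10 fell, where 14.3% and 14% of all genes did. Rars1, the arginyl-tRNA synthetase, rose in both genotypes (log2 fold change 1.37 ± 0.07 in WT and 1.06 ± 0.09 in miR-210 KO), and so did Atf3, a stress-induced factor (1.78 ± 0.13 and 1.79 ± 0.11). Slc43a2, a transporter of large neutral amino acids, fell in both (-1.27 ± 0.07 and -1.40 ± 0.07), as did Eif2ak2, the kinase PKR (-1.47 ± 0.09 and -1.03 ± 0.13), Slc7a7, a light chain for arginine export (-1.66 ± 0.11 and -1.22 ± 0.11), and Gdf15, a secreted stress cytokine (-1.38 ± 0.22 and -2.08 ± 0.14). Of the 15 other cytosolic tRNA synthetases, 8 rose and 0 fell in WT (edgeR, with 9 higher and 0 lower at an unadjusted p under 0.05). At that level 3896 of all 14266 genes were higher and 3775 lower in WT. In miR-210 KO 4 of the 15 rose and 0 fell. Between the genotypes, 0 of the 53 were called by edgeR in either state, with 3 higher and 2 lower at an unadjusted p under 0.05 in M0 and 2 higher and 8 lower in M2. Of all genes, 5.04% were higher and 4.97% lower at that level in M0, and 4.86% were higher and 5.85% lower in M2.

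The next comparisons asked what the loss of miR-210 did within each state. In M0 no member was called: 0 of 29 by edgeR and 0 by the DESeq2 Wald test, where 0.461% of all 14089 genes were called by edgeR and 1.55% by DESeq2. The levels were higher in miR-210 KO for 23 members and lower for 6, with a median log2 fold change of 0.08 against 0.0005 over all genes. At an unadjusted p under 0.05 there was 1 member, Psat1, where 5.04% of all genes reached that level with a higher value in miR-210 KO. Psat1 stood at 4.83, 6.51 and 5.38 CPM in WT M0 and at 9.58, 8.09 and 7.37 CPM in miR-210 KO M0. Each miR-210 KO library was above each WT library, with a log2 fold change of 0.57 ± 0.19 and an adjusted p of 0.298. Slc7a1 was the other member whose groups did not overlap (0.31 ± 0.15, adjusted p = 0.5019), where 7.15% of all genes did so in this direction. The median of the members was 0.0066 without library 2, 0.13 without library 1 and 0.18 without library 3 of WT M0. It was 0.03 without library 1, 0.17 without library 2 and 0.0064 without library 3 of miR-210 KO M0, and without that library 2 the number of members higher at an unadjusted p under 0.05 was 8. The share of all genes higher at that level was not counted in that fit, so this 8 has no share beside it. It cannot be set against the 5.04% above, since small p values were more common there, at least among genes lower in miR-210 KO. In that direction, opposite to that of the 8 members, 8.58% of all genes reached that level, against 4.97% with all libraries. The 5 proliferation markers all had higher values in miR-210 KO M0 (median log2 fold change 0.57), 3 of them at an unadjusted p under 0.05, with sums between 81.7 and 160 CPM in WT and between 128 and 202 CPM in miR-210 KO. Their part in the difference was not tested.

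In M2 the members lay lower in miR-210 KO. Of the 31 tested, 5 were called and all 5 were lower: Psat1, Trib3, Slc1a5, Chac1 and Aldh18a1, where 0.572% of all 13980 genes were called lower. The value was lower in miR-210 KO for 29 members and higher for Cebpg and Vldlr, with a median log2 fold change of -0.24 against 0.0020 over all genes. At an unadjusted p under 0.05 there were 22 members, all lower, where 5.85% of all genes reached it in this direction. For 19 members every miR-210 KO library was below every WT library, which held for 8.53% of all genes. The members were chosen with earlier results of these data known. The paper had named Trib3, Asns, Psat1 and Chac1 within programs suppressed in miR-210 KO M2. The counts of members beside these shares are therefore a description and no independent support. With only the 29 members tested in every comparison, 5 were called lower, 27 had a lower value and the median was -0.24. Of the 5 called genes, 1 held TGATGNAA in its window, the Chac1 stretch shown above.

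Psat1 stood at 104, 105 and 144 CPM in WT M2 and at 76.5, 71.6 and 84.4 CPM in miR-210 KO M2. The groups did not overlap, and the log2 fold change was -0.60 ± 0.11 (adjusted p = 0.01114), 0.662 of the WT level. Trib3, the inhibitor of ATF4, stood at 23.8, 26.9 and 35.0 CPM in WT and at 19.0, 16.3 and 18.5 CPM in miR-210 KO (-0.67 ± 0.13, adjusted p = 0.0203). Chac1 stood at 12.4, 13.3 and 19.2 CPM in WT and at 8.94, 5.44 and 8.89 CPM in miR-210 KO. It had the largest difference of the 5 called members, with a log2 fold change of -0.95 ± 0.20 (adjusted p = 0.02913) or 0.517 of the WT level. Slc1a5 stood at 77.7, 87.7 and 102 CPM in WT and at 70.6, 61.0 and 64.9 CPM in miR-210 KO (-0.44 ± 0.09, adjusted p = 0.0273). Aldh18a1 stood at 25.6, 27.1 and 32.4 CPM in WT and at 19.4, 19.9 and 21.0 CPM in miR-210 KO (-0.49 ± 0.10, adjusted p = 0.03257). In each of these 5 genes library 3 of WT M2 was the highest of all libraries of the pair, and the other 2 WT libraries still lay above the miR-210 KO libraries.

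**Figure D3:**
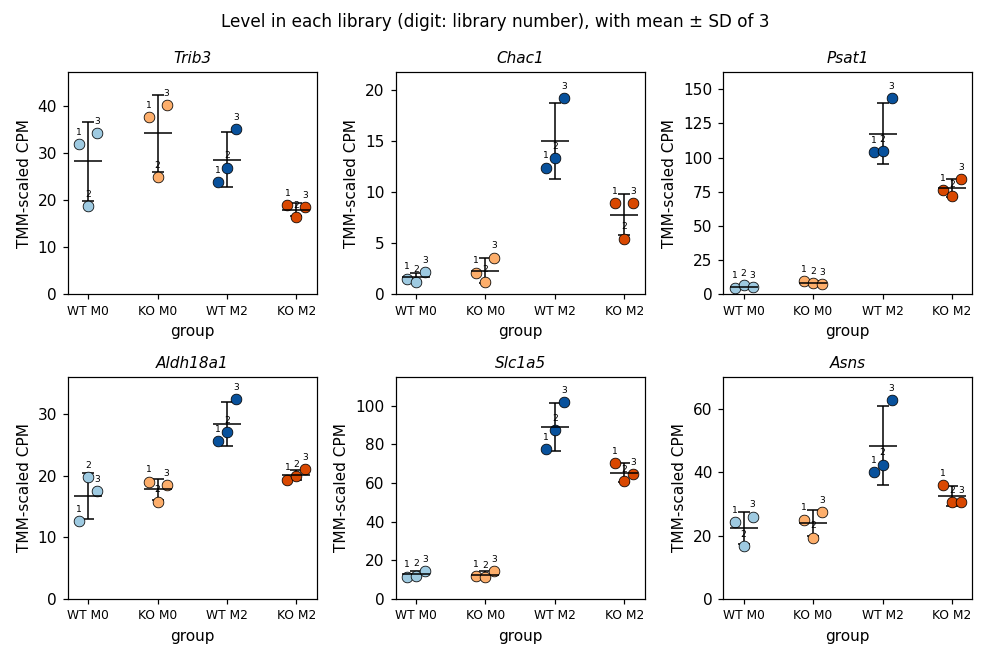
TMM-scaled CPM (y axis, from 0) of the 5 members called in M2 and of Asns in every library of the 4 groups (x axis), with the library number above each point and the mean ± SD of 3 as bars. In all 6 genes the 3 miR-210 KO M2 libraries lie below the 3 WT M2 libraries, and library 3 of WT M2 is the highest of its group.

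By role, all 5 tested enzymes of serine and one-carbon metabolism had lower levels in miR-210 KO M2, with log2 fold changes between -0.79 and -0.23 and 1 call (Psat1). Phgdh stood at 10.6, 10.8 and 17.1 CPM in WT and at 8.58, 5.75 and 7.89 CPM in miR-210 KO (-0.79 ± 0.20) but did not pass the adjustment (adjusted p = 0.07944). Psph stood at 18.6, 20.1 and 20.7 CPM against 15.8, 14.6 and 15.4 CPM (-0.37 ± 0.10, adjusted p = 0.1192). Asns, at 40.1, 42.5 and 62.8 CPM in WT and 36.0, 30.7 and 30.6 CPM in miR-210 KO, just missed the threshold (-0.57 ± 0.14, adjusted p = 0.06196). Both Phgdh and Asns were called by the DESeq2 Wald test, which called 7 members, all lower, and 1% of all genes in either direction.

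All 7 transporters had lower levels in miR-210 KO M2 and 1 was called (Slc1a5). Slc7a5, at 12.5, 13.0 and 18.9 CPM in WT and 9.19, 7.95 and 10.4 CPM in miR-210 KO, had a log2 fold change of -0.68 ± 0.17 (adjusted p = 0.06712). Slc6a9 went from 3.18, 3.06 and 2.72 CPM in WT to 1.96, 1.15 and 0.877 CPM in miR-210 KO (-1.16 ± 0.29, adjusted p = 0.07949). Its WT libraries were close together and library 3 was the lowest of them, unlike in most other members. Slc3a2, the partner chain of Slc7a5, differed little (-0.05 ± 0.07).

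The tRNA synthetases and the transcription factors showed small differences and no call. The 5 synthetases had log2 fold changes between -0.24 and -0.06 (adjusted p of at least 0.1472). In 4 of them the groups did not overlap, where 8.53% of all genes were lower in miR-210 KO without overlap. Atf4 stood at 407, 413 and 475 CPM in WT M2 and at 390, 402 and 354 CPM in miR-210 KO M2, with no overlap but a log2 fold change of only -0.17 ± 0.07 (adjusted p = 0.3298). Atf5 (-0.21 ± 0.07), Ddit3 (-0.25 ± 0.10) and Nupr1 (-0.24 ± 0.12) were of similar size, and Cebpg was at 0.03 ± 0.06. Ppp1r15a (0.00 ± 0.15) and Eif4ebp1 (-0.06 ± 0.07) differed by less than their error. Among the 15 other cytosolic tRNA synthetases 13 were lower in miR-210 KO M2, with a median log2 fold change of -0.15. At an unadjusted p under 0.05, 5 of them were lower, where 5.85% of all genes were. The 13 eIF2 kinases and subunits of eIF2 and eIF2B had a median of 0.03.

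**Figure D4:**
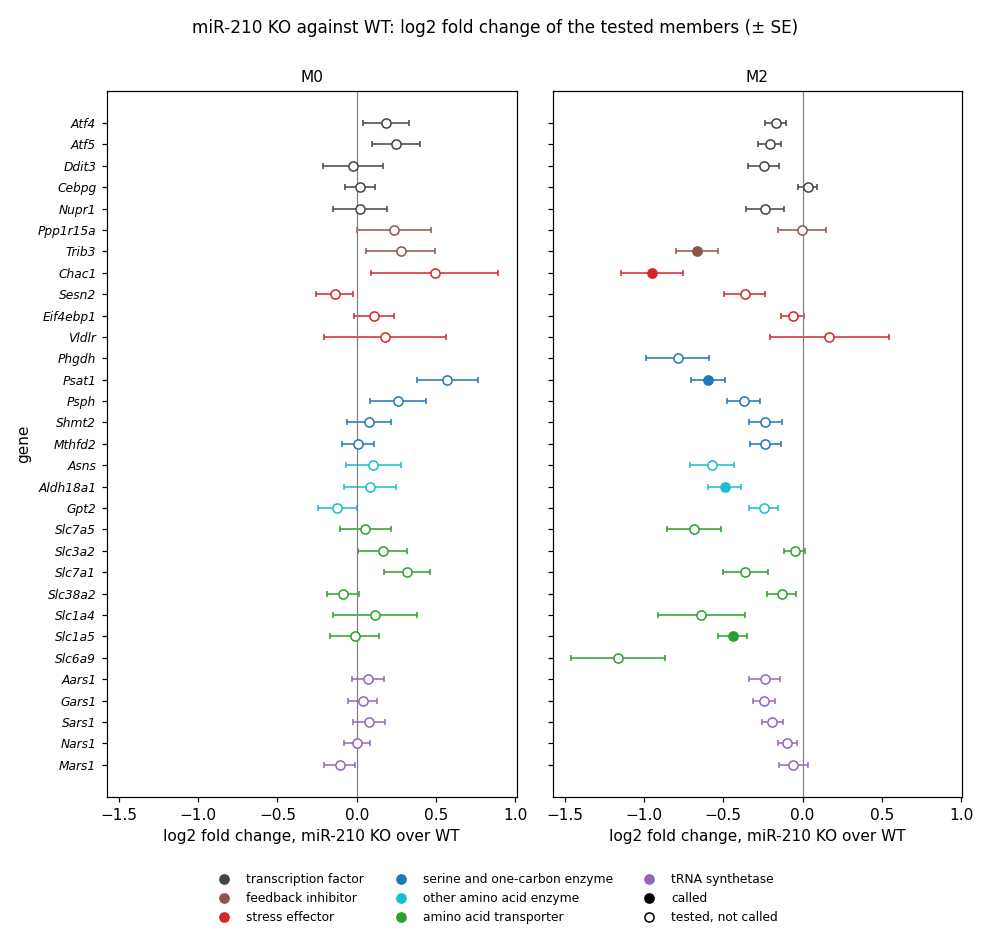
Log2 fold change of miR-210 KO over WT (x axis, with its SE as a bar) of each tested member (y axis) in M0 (left) and M2 (right), coloured by role, with filled points for called genes. In M0 no point is filled and 23 of 29 lie above 0, whereas in M2 29 of 31 lie below 0 and 5 are filled.

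The calls in M2 depended on single libraries, whereas the direction did so less. Without library 3 of WT M2, 24 of 31 members were lower in miR-210 KO, 12 of them at an unadjusted p under 0.05 where 3.94% of all genes were, the median was -0.16, and 1 member was called, Psat1 (log2 fold change -0.43, adjusted p = 0.02624). The log2 fold changes of the other 4 were then -0.74 for Chac1, -0.50 for Trib3, -0.39 for Aldh18a1 and -0.33 for Slc1a5, with adjusted p between 0.0949 and 0.1894. Without library 1 or library 2 of miR-210 KO M2 no member was called by edgeR, and the medians were -0.24 and -0.25. At an unadjusted p under 0.05, 18 and 17 members were then lower, where 5.37% and 4.98% of all genes were. Without library 2 of WT M2, 8 were called, where 1.06% of all genes were called in either direction. In the fit of all 12 libraries, 1 member was called, Psat1, where 0.405% of all genes were. The share of all genes called was 0.422% without library 3 of WT M2. It was 0.471% and 0.373% without library 1 and library 2 of miR-210 KO M2. The 5 proliferation markers summed to between 204 and 210 CPM in WT M2 and between 224 and 254 CPM in miR-210 KO M2. The 5 neutrophil markers summed to between 2.48 and 4.43 CPM in WT M2 and between 1.13 and 1.88 CPM in miR-210 KO M2, and S100a8, the one of them tested, was lower without overlap (log2 fold change -1.17 ± 0.28, adjusted p = 0.06015). The 3 dendritic cell markers summed to between 11.6 and 18.0 CPM in WT M2 and between 10.2 and 13.1 CPM in miR-210 KO M2, with Zbtb46, the one tested, at -0.43 ± 0.16 (adjusted p = 0.3132). Ly6g and Flt3 were at 0 in both groups. The part of these markers in the difference was not tested. In RNA from a whole culture, fewer cells with a high level and less RNA per cell cannot be told apart.

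Whether the effect of miR-210 loss differed between M0 and M2 was tested as the interaction of genotype and state over all 12 libraries. No gene of the 14825 tested was called by edgeR, so 0% were called, and 0 of the 31 members. The interaction was negative for 29 of the 31 members and the median was -0.31, against -0.0016 over all genes. A total of 12 members had an unadjusted p under 0.05, all negative, where 4.88% of all genes had. Without Phgdh and Slc6a9, which were rare in M0, the interaction was negative for 27 of 29 members and the median was -0.28. Psat1 had the smallest adjusted p of the members, with an interaction of -1.17 ± 0.23 (adjusted p = 0.09506), and DESeq2 called it alone among the members. Of all genes, DESeq2 called 0.486% here. Trib3 (-0.95 ± 0.29), Chac1 (-1.44 ± 0.48), Slc7a5 (-0.74 ± 0.25), Psph (-0.63 ± 0.20), Asns (-0.68 ± 0.26), Slc7a1 (-0.68 ± 0.24) and Aldh18a1 (-0.58 ± 0.20) had adjusted p between 0.293 and 0.3957. Without library 2 of WT M0 Psat1 was called, where 0.432% of all genes were. Without library 2 of miR-210 KO M0 Psat1 and Psph were called, where 0.511% of all genes were. Without library 3 of WT M2 the median was -0.23, with 27 of 31 negative. In that fit 8 members had an unadjusted p under 0.05, all negative, where 3.92% of all genes had. The interaction was also negative for all 5 proliferation markers (median -0.49, 1 at an unadjusted p under 0.05), and their part in that of the members was not tested.

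The genotype comparisons in M0 and in M2 share no library. Among the 29 members tested in both, 21 (72.4%) had a higher value in KO than in WT in M0 and a lower one in M2, 6 were lower in both, 2 were higher in both and 0 were lower in M0 and higher in M2. Of the 13436 genes tested in both, 24.2% were higher in M0 and lower in M2. Across genes the correlation of the log2 fold changes of both states was 0.399 over all these genes and -0.413 over the 29 members, which are not independent of one another since they moved together between libraries.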

How the data were processed

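Ribosomal RNA was removed and stranded paired-end libraries were sequenced. The authors trimmed the reads (Trimmomatic), removed duplicates (Picard), aligned to GRCm39 (STAR) and counted per gene and strand (featureCounts), and the deposited values used here are these counts. The deposited tables of normalized counts were not used. Column numbers 1 to 3 within a group are not tied to sample names. Tests used R 4.3.3 and edgeR 4.0.16 (TMM, filterByExpr by group, quasi-likelihood test) on the 6 libraries of a comparison. The interaction used all 12, without a limit on its size. The Benjamini-Hochberg adjustment ran over all genes tested. The SE is the log2 fold change divided by the square root of the F statistic. Alternatives were the DESeq2 1.42.0 Wald test, RLE normalization, other filters, no limit on the fold change, 1 fit of all 12 libraries, each library left out and, added after the data were seen, a block by column number. Tested on simulated counts for miR-210 KO against WT in M2, edgeR called 93% of 200 genes changed by 1 on the log2 scale among 13812, and 4.12% of calls were false. The genes were simulated independently and changed by more than the called members differed. These shares therefore do not describe calls among the members, which moved together between libraries. Transcripts, positions and start sites are of GENCODE on GRCm39, which matched 56323 identifiers, and miRNA sequences of RefSeq (GRCm38.p6). Ddit3 stands on 2 identifiers, of which 1 had 0 counts and was left out. No library repeated another within counting noise. All members may be named, with Mir210, the markers and at most 4 other pathway genes per comparison with the smallest p among those called. Members and lists were chosen with earlier results of these data known, and their counts are no independent support.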

Additional observations from a re-analysis of the deposited data

Results flagged for a closer look

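Psat1 was flagged because the difference between the genotypes pointed in opposite directions in M0 and M2 in every library. In M0 the 3 miR-210 KO libraries were all above the WT libraries, and in M2 all 3 were below them. The difference in M2 minus that in M0 was -1.17 on the log2 scale (SE 0.23). It was tested as the interaction over 12 libraries and did not pass the adjustment over all genes with edgeR (adjusted p = 0.09506).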

How the results depend on the processing

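The counts of members called were most sensitive in the comparison of genotypes in M2. There the count of 5, all lower, became 11 when lowly counted genes were kept and 1 in the fit of all 12 libraries, and ranged from 0 to 8 when single libraries were left out. The share of all genes called in either direction moved as well. It was 1.38% when lowly counted genes were kept and 0.405% in the fit of all 12 libraries. With single libraries left out it ranged from 0.373% to 1.51%. In the interaction the count of 0 became 1 with DESeq2 and 7 when lowly counted genes were kept, all lower, and ranged from 0 to 2 over single libraries left out. Of all genes, 0.486% were called with DESeq2 and 1.19% when lowly counted genes were kept. At most 0.511% were called with a single library left out. The count of members called lower in M2 than in M0 ranged from 2 to 6 in WT and from 6 to 11 in miR-210 KO over single libraries left out. Of all genes, between 32.1% and 34.9% were then called in either direction in WT and between 23.1% and 28.5% in miR-210 KO. The median log2 fold change of M2 over M0 in miR-210 KO changed sign without library 1 of miR-210 KO M0 and ranged from -0.089 to 0.0074 over these fits. The causes were not tested. Of 980 comparisons of a member's value with an alternative, 884 kept direction and call, 67 lost the call, 29 gained it and 0 reversed. These 980 do not cover every tested member in every fit, and some members did change sign. Between the genotypes in M2, 29 of 31 members were lower in miR-210 KO with all libraries, but 24 without library 3 of WT M2. The columns of each group are numbered 1 to 3, and after the data were seen a replicate block by this number was tried. Nothing in the labels pairs the numbers. The correlation of deviations between libraries of 1 number over 13390 genes lay between 0.025 and 0.41 for the genotypes in M0, with 2 of the 3 WT libraries correlating best with their own number. It lay between -0.088 and 0.112 in M2, between -0.116 and -0.051 for the states in WT and between -0.35 and 0.074 for those in miR-210 KO, so the libraries were not taken as paired. With the block, 10 members were called between the genotypes in M2, all lower, 0 in M0 and 0 in the interaction, and 14 higher and 4 lower in WT and 8 higher and 9 lower in miR-210 KO with IL-4. Of all genes, the block called 2.07% in either direction between the genotypes in M2, 2.02% in M0 and 0% in the interaction. With IL-4 it called 34.6% in WT and 26.2% in miR-210 KO. With 3 libraries a group, small differences are not resolved, and Cth, Pycr1 and Aldh1l2 are too rare here to be compared.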
